A study of Felis catus with 12 samples.

Results

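The nuclear pore genes named NUP and the soluble transport receptors named importin (IPO), karyopherin (KPNA, KPNB), transportin (TNPO) and exportin (XPO) were examined in left ventricular myocardium of cats. Members were all genes of the count table whose symbol begins with one of these stems followed by a number, with XPOT added. This gave 46 of the 30785 genes listed, of which 22 were nucleoporins and 24 were transport receptors. RNA came from post-mortem left ventricular tissue of 12 client-owned cats and was read directly by nanopore sequencing, without conversion to cDNA. Each cat gave 1 library. The labels give each library a cat number and a flow cell and no disease outcome or treatment. The study's cohort description gives an outcome by cat number, but cats were not grouped by disease here. By those numbers all cats of flow cell A had a known cardiac death, as did those of flow cells B and C except cats 29 and 36. Flow cell A held cats 11, 23, 30 and 31, flow cell B held cats 10, 15, 35 and 36, and flow cell C held cats 22, 29, 37 and 38. Each cat was read on 1 flow cell, so differences between flow cells and differences between their cats cannot be told apart. The libraries of cats 22 and 29 bear numbers that are absent from the study's list of sequenced cats. They entered the comparisons of flow cells and, except in named alternatives, no comparison with a trait.

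Nuclear pores are built from rings of nucleoporins that anchor a central channel lined with flexible, phenylalanine-glycine rich nucleoporins. Importins bind cargo in the cytoplasm and release it in the nucleus when they meet RAN bound to GTP, and exportins need the same form of RAN to carry cargo out. In heart muscle cells, which rarely divide, many scaffold nucleoporins are long-lived proteins, and transcription factors that drive hypertrophic growth enter the nucleus through these carriers.

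Libraries held 789257 to 2263110 reads on genes, and the deepest was that of cat 11. Reads of all members summed to 24562, or 0.156% of all reads. Values below are normalised reads, which are the reads of a gene divided by the size factor of its library. A gene was tested if 3 or more of the 10 libraries with a listed cat number held 10 or more of its reads, which left 37 of 46 members among 8715 genes in all. Of these 37 members, 15 were nucleoporins and 22 were receptors. Cardiomyocyte markers took 6.95% to 12.7% of reads in each library, and 5 of the 6 markers on that list were in the table, MYH7 not among them. In bulk tissue, fewer cells of a type and less RNA per cell cannot be told apart.

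Most of the reads fell on receptors. Receptors held 85.3% of the members' reads and nucleoporins 14.7%, which is a share of reads uncorrected for gene length and therefore no ranking of levels. The importin beta family held 52.9%, the importin alpha adaptors 20.3% and the exportins 12.1%. IPO5, KPNA4 and IPO7 together held 48.3%. Among nucleoporins, the members of the cytoplasmic side, basket and mobile pool held 4.80%, the inner ring 4.09%, the central channel 3.02%, the outer ring 2.69% and the membrane ring 0.118%. Precision followed these shares, since counting alone gave IPO5 a coefficient of variation of 4.59% between libraries and gave NUP188 one of 35.9%.

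The other 9 members were below the filter. NUP62CL and KPNA7 had 0 reads in every library, which with 3 reads as the limit allows up to 1.33 CPM (reads scaled to the library's total) in the deepest library and 3.80 CPM in the shallowest. NUP210L had 6 reads in all, NUP210 23, NUP133 32, KPNA5 32, NUP43 60, NUP37 71 and NUP205 91. NUP210, a membrane-spanning nucleoporin, thus had 5 reads at most in a library, and no member of the membrane ring could be tested. NUP205, a large scaffold protein of the inner ring, had 48 of its reads in cat 11 and 14 in cat 29, with 0 in cats 10 and 15.

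**Figure D1:**
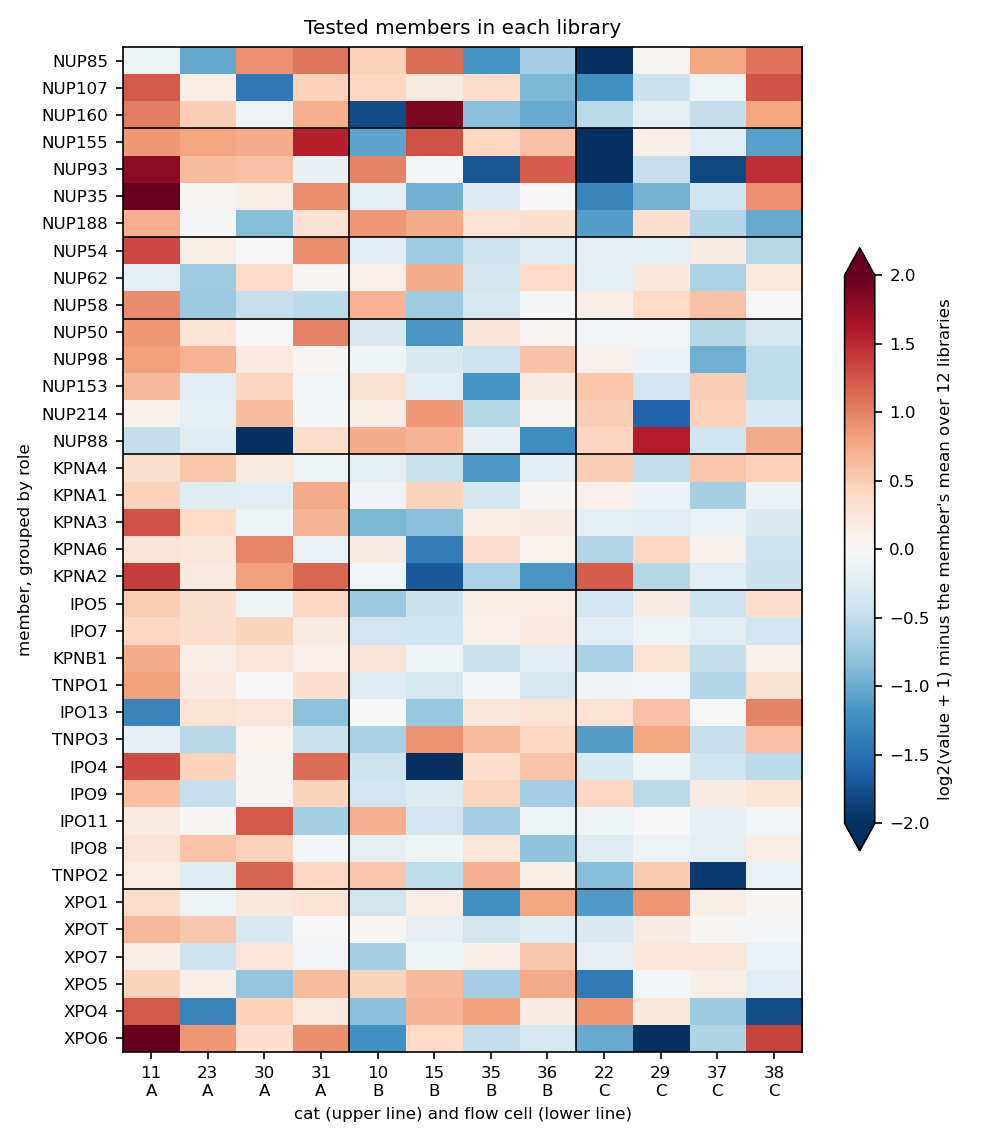
Each row is 1 of the 37 tested members, grouped by role, and each column is a library. Colour gives log2(value + 1) minus the member's own mean over 12 libraries, so red is above that mean. Red is most frequent in the leftmost column, cat 11, where 16 members were at their highest.

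The first comparison asked whether members differed between the libraries of flow cell A and those of flow cells B and C. No member passed an adjusted p of 0.05 in limma, whereas 475 of all 8715 genes did (5.45%), 160 of them higher on flow cell A (1.84%). With the read-based tests, edgeR called 1 member, NUP54, where it called 5.34% of all genes, and DESeq2 called 3, KPNA2, NUP54 and IPO7, where it called 9.45%. The estimates nevertheless lay mostly on one side. They were above 0 for 31 of 37 members (83.8%) against 52.4% of all tested genes, and their median was 0.36 on the log2 scale against 0.03. At an unadjusted p under 0.05, 11 members were higher on flow cell A, or 29.7%, where 9.86% of all genes were. Among these 11 is XPO6, which passed the filter on reads only through the libraries of flow cell A. None was lower, where 12.2% of all genes were. For none of the members did every library of flow cell A lie above all others, which held for 1.72% of genes, and for none did every one lie below, which held for 2.51%.

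The summed share of members in each library showed the same side. On flow cell A, the share of reads was 0.234% in cat 11, 0.191% in cat 23, 0.183% in cat 30 and 0.167% in cat 31. On flow cells B and C it ran from 0.111% to 0.163%, with the highest in cat 38, close under the 0.167% of cat 31. These shares divide by all reads of a library, not by its size factor. Cat 38 had 2667 member reads at a size factor of 1.36, and cat 30 had 2230 at 1.19. Divided by size factors, cat 38 thus lay above cat 30, and the ranges overlapped. IPO5, KPNA4 and IPO7 held 48.3% of members' reads, and how often other sets of genes part by flow cell was not tested. Within the members, nucleoporins took 11.9% to 18% of reads on flow cell A and 11.9% to 17.3% on the others, which overlapped.

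**Figure D2:**
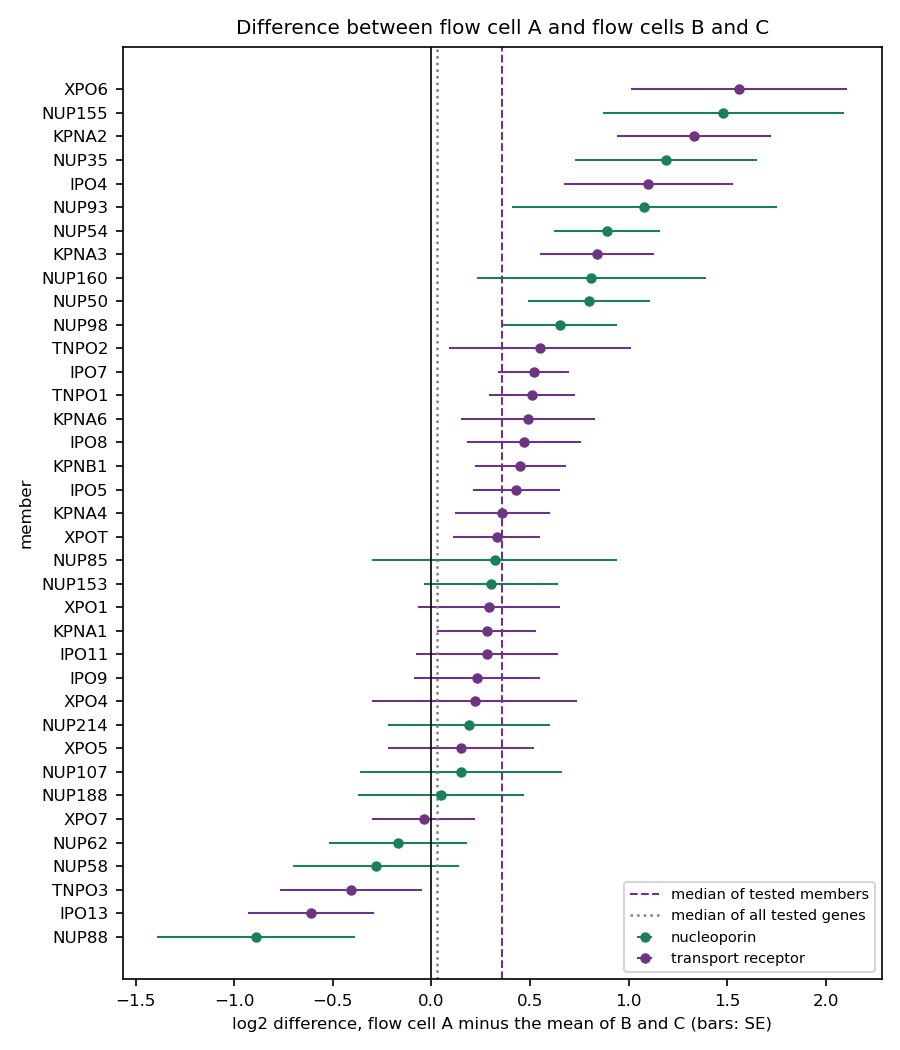
Points give the log2 difference of flow cell A minus the mean of B and C for 37 tested members, with bars of 1 SE from limma. The dashed line is the median of members at 0.36 and the dotted line that of all tested genes at 0.03, and 31 points lie above 0.

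By role, the estimates were distributed as follows, with no member past the adjusted threshold in limma. All 5 importin alpha members and all 4 inner ring members had estimates above 0, with medians of 0.49 and 1.13. In the importin beta family, 9 of 11 did, with a median of 0.45, as did 5 of 6 exportins with a median of 0.26. For the central channel only 1 of 3 did.

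Importin alpha proteins read the classical nuclear localisation signal and hand the cargo to importin beta. KPNA2, one of these adaptors, had 41.5, 17.5, 27.8 and 35.1 normalised reads in cats 11, 23, 30 and 31. On flow cell B it had 14.7, 4.08, 9.45 and 6.23 in cats 10, 15, 35 and 36, and on flow cell C it had 36.5, 9.98, 12.9 and 11.0 in cats 22, 29, 37 and 38. Only cat 22 on the other flow cells reached the range of flow cell A. The log2 difference was 1.33 ± 0.39 (SE), with an adjusted p of 0.0604 in limma. Against flow cell B alone the difference was 1.77 with an adjusted p of 0.0415, which made KPNA2 the 1 member of 37 called there (2.70%), where 3.74% of all genes were called, and against flow cell C it was 0.89 with an adjusted p of 0.315.

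KPNA4, the adaptor with the most reads, had 201 to 317 on flow cell A, 96.1 to 189 on flow cell B and 153 to 316 on flow cell C. On flow cell C, cat 29 lay below every library of flow cell A and the other 3 lay within its range, and those of flow cell B all lay below flow cell A. The share of all genes that part in this way between flow cells A and B is not given here, so this is no result about KPNA4. Its log2 difference was 0.36 ± 0.24 (SE), adjusted p = 0.397 in limma.

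IPO5, which imports ribosomal proteins and histones among other cargo, had 637, 556, 417 and 593 in cats 11, 23, 30 and 31. On flow cells B and C its values ran from 268 in cat 10 to 560 in cat 38, so the groups overlapped. The mean was 550 ± 95.1 (SD, n = 4) on flow cell A, and the log2 difference of 0.43 ± 0.22 (SE) had an adjusted p of 0.260 in limma. IPO7, a related carrier, had 251, 240, 256 and 214 on flow cell A. Elsewhere it had 142 to 216, and cat 36 alone reached the range of flow cell A. Its difference was 0.52 ± 0.18 (SE), with an adjusted p of 0.0951 in limma and 0.0421 in DESeq2.

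NUP54 sits in the central channel with NUP62 and NUP58. It had 81.1, 34.9, 32.0 and 61.4 on flow cell A and 19.1 to 35.8 elsewhere. Cats 11 and 31 stood above every other library, and cats 23 and 30 lay within the upper end of flow cell C. The log2 difference was 0.89 ± 0.27 (SE), with an adjusted p of 0.0687 in limma, 0.0356 in edgeR and 0.0169 in DESeq2. Its partners NUP62 and NUP58 had estimates of -0.17 and -0.28, with adjusted p of 0.813 and 0.736 in limma.

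NUP155, an inner ring scaffold protein, had 28.5, 26.9, 26.1 and 46.3 on flow cell A. On flow cell B it had 6.8, 38.1, 20.5 and 23.2 in cats 10, 15, 35 and 36. On flow cell C it had 0 in cat 22 and 6.62 to 16.6 in the others. Cat 15 lay within the range of flow cell A and no library of flow cell C did. The share of all genes that part in this way between flow cells A and C is not given here. The log2 difference was 1.48 ± 0.61 (SE), adjusted p = 0.168 in limma. NUP50, a mobile basket protein that helps release importin alpha cargo, had 36.7, 24.2, 19.4 and 39.9 on flow cell A and 8.17 to 23.6 elsewhere, with a difference of 0.80 ± 0.31 (SE) and an adjusted p of 0.139 in limma.

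**Figure D3:**
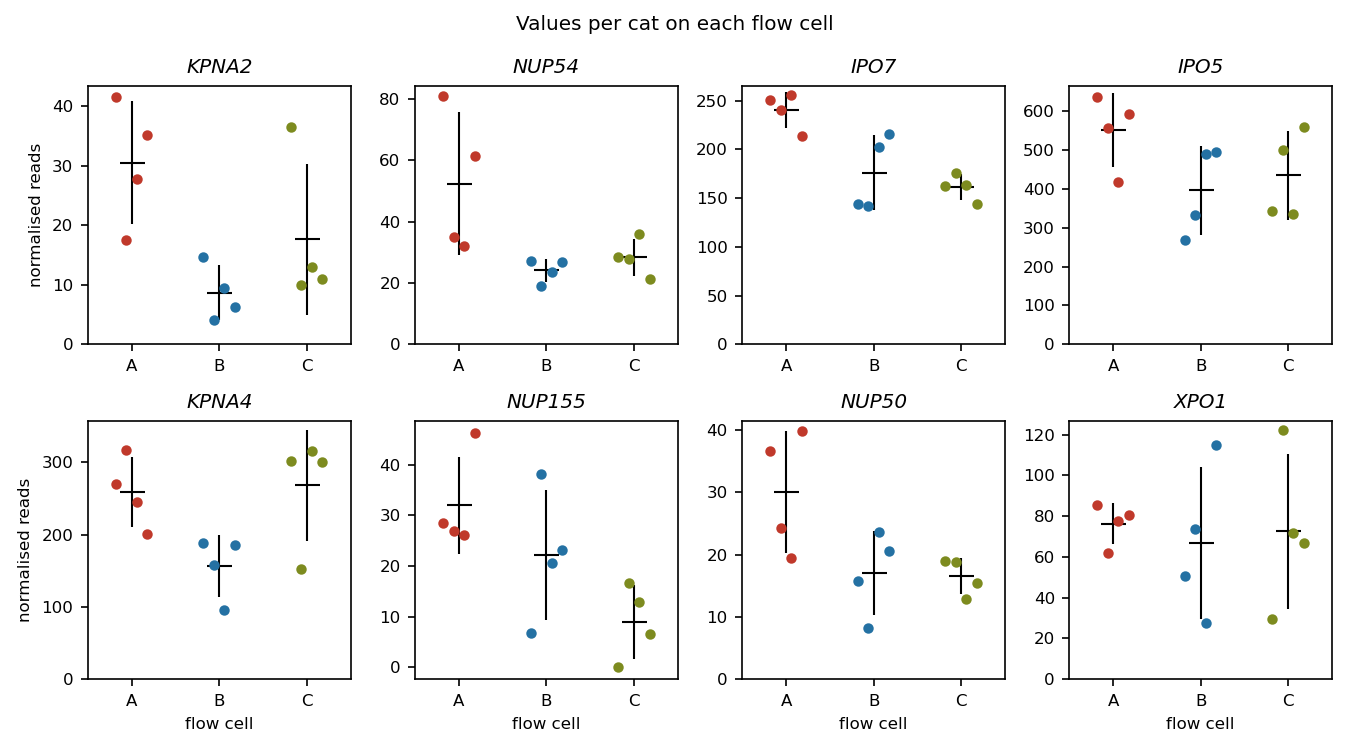
Normalised reads of 8 members on the vertical axes, with 1 point per cat and a bar for mean ± SD of the 4 cats on each flow cell. KPNA2 shows cat 22 of flow cell C at 36.5 among 3 low neighbours, and XPO1 shows groups that overlap fully.

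XPO1, the main export receptor for proteins with leucine-rich signals, had 61.8 to 85.4 on flow cell A and 27.6 to 122 elsewhere, so that its groups overlapped fully. Its log2 difference was 0.29 ± 0.36 (SE), and with 1 library left out it was 0.12 without cat 35, 0.11 without cat 22, 0.45 without cat 36 and 0.44 without cat 29. NUP85, an outer ring protein, had 5.4 to 26.3 on flow cell A and 1.35 to 27.2 elsewhere, with a difference of 0.32 ± 0.62 (SE) that ranged from -0.07 without cat 22 to 0.74 without cat 23.

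Chosen after their values were seen, the other members at an unadjusted p under 0.05 were KPNA3, XPO6, NUP35, IPO4, TNPO1 and NUP98, with log2 differences of 0.84, 1.56, 1.19, 1.10, 0.51 and 0.65 and adjusted p between 0.101 and 0.211 in limma. Outside flow cell A, only cat 38 held 10 or more reads of XPO6. XPO6 thus passed the filter through the group where it was high, and its estimate is no support for a difference. With 10 reads required in 6 libraries XPO6 was not tested, and 10 members were at an unadjusted p under 0.05. The difference of NUP35 was 0.76 without cat 11. The lowest estimates were NUP88 at -0.89, IPO13 at -0.61 and TNPO3 at -0.41, with adjusted p of 0.317, 0.279 and 0.532. IPO13 carries cargo in both directions, and in cat 11 it was at 21.7, the lowest of its 12 values.

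Cat 11 weighed on this comparison. It held the highest of the 12 values for 16 of 37 members (43.2%), against 14.6% of all tested genes. When every library was thinned to 789257 reads, it held the highest thinned count for 18 members, against 20.2% of genes. These counts were not divided by size factors, and a tie for the highest was credited to the library first in order, cat 11. Both figures can therefore be too high and are not comparable with those of the normalised values. Without cat 11, 4 members in place of 11 were at an unadjusted p under 0.05. The matching count over all genes at that p is not given here, so this drop is no result about the members. All genes called at an adjusted p under 0.05 in limma fell from 475 to 47. Of the members' estimates, 28 of 37 stayed above 0 with a median of 0.34. This library was singled out after its values were seen.

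Some markers of other cells differed on flow cell A. Fibroblast markers took 0.0884% to 0.301% of reads there and 0.0208% to 0.148% elsewhere. All 6 had estimates above 0 and 3 were called, COL1A1, COL1A2 and COL3A1, with log2 differences of 2.63, 2.00 and 1.84. Smooth muscle markers took 0.0314% to 0.0786% against 0.00667% to 0.0232%, but the 2 tested ones differed. TAGLN was called at 2.63 and had 188 to 744 normalised reads against 28.6 to 134. It was without overlap, as 1.72% of all tested genes were above on flow cell A. ACTA2 had 104 to 126 against 49.0 to 152, with a log2 difference of 0.36 and an adjusted p of 0.453 in limma. Of 5 cardiomyocyte markers, 1 had an estimate above 0, and their median was -0.51. TNNT2 alone was called, lower at -1.05, and ACTN2 was at -0.81 with an adjusted p of 0.0632 in limma. Endothelial markers took 0.0343% to 0.0699% against 0.0205% to 0.0869%, and leukocyte markers 0.00601% to 0.0190% against 0.00349% to 0.0424%. The part of these shares in the members' differences was not tested.

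Flow cells B and C were compared to see how far the remaining libraries differed. No gene passed the adjusted threshold in limma (0%), and 686 genes (7.87%) and 3 members (8.11%) had an unadjusted p under 0.05. In edgeR 0 genes and in DESeq2 23 genes were called, with 0 members in each. The median of members was 0.04 and 20 of 37 estimates were higher on flow cell C. The 3 members, named after their values were seen, were KPNA4 at 0.76 ± 0.28 (SE), NUP188 at -1.15 ± 0.48 and NUP155 at -1.60 ± 0.71, all with adjusted p above the threshold, at 0.491, 0.571 and 0.605 in limma.

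Spread between cats exceeded counting error for most members. The median coefficient of variation was 43.2% for the members, against 22% from counting alone, and the median ratio of both was 2.33, against 2.13 for all tested genes. IPO5 had the largest excess, with 25.9% against 4.59%, a ratio of 5.64. KPNA4 followed with 32.6% against 6.8% and NUP35, an inner ring protein, with 88.8% against 23.8%. NUP35 was at 51.6 in cat 11, 23.1 in cat 31 and 22.8 in cat 38, and between 4.05 and 12.6 in the other 9. At the other end, IPO8 had 26.5% against 27.2%, NUP62 32.3% against 32.1% and the exportin XPO7 22.3% against 18.4%. For IPO8 and NUP62 the spread over the 12 cats was thus about that of read counting alone. With counting errors this large, smaller differences between cats could not be seen. NUP62 overlaps other protein-coding genes in the RefSeq table of assembly F.catus_Fca126_mat1.0, the 1 tested member for which this was so.

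**Figure D4:**
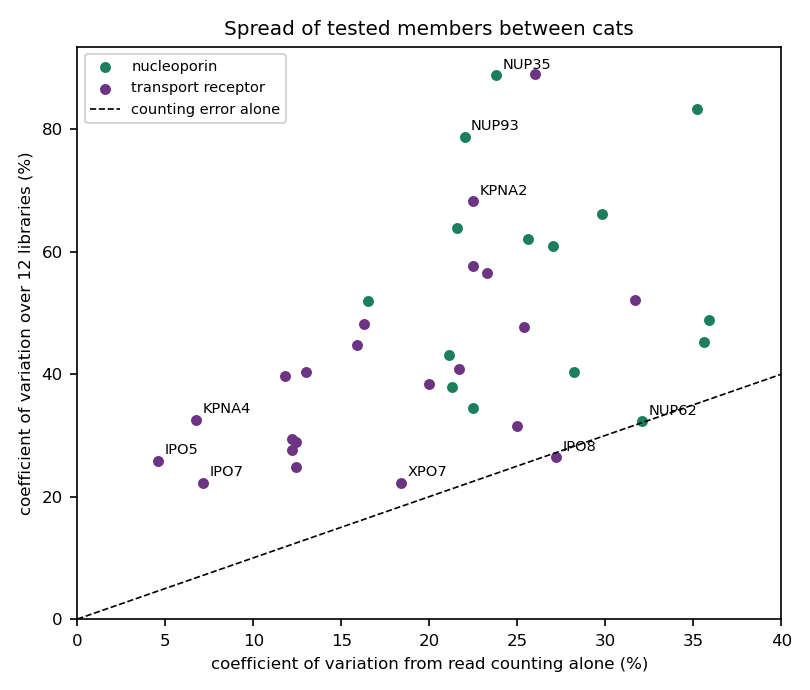
Each point is a tested member, with its coefficient of variation over 12 libraries on the vertical axis and that from read counting alone on the horizontal axis, both in percent. The dashed line marks equality. IPO5 at 4.59% and 25.9% lies far above the line, and IPO8 and NUP62 lie on it.

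Age was one of the traits that the study related to expression, and 9 listed cats had an age. No gene passed the adjusted threshold by exact permutation of Spearman's rho, and 415 genes (4.76%) but no member had an unadjusted p under 0.05. The rank correlation, rho, was negative for 23 of 37 members (62.2%), against 51.5% of all tested genes, and positive for 12. Its median was -0.150 for the members and -0.0167 for all genes. limma was then fitted with flow cell as a covariate. There, 5 of 37 members had a negative slope on age at an unadjusted p under 0.05, where 582 of 8715 genes (6.68%) did. Over both directions, 1010 of 8715 genes and the same 5 of 37 members were under that p. The members' share thus lay close to that of all genes, and again no gene passed the adjusted threshold. The 5 members were IPO4, NUP35, NUP50, KPNA3 and IPO5. All 5 also had higher estimates on flow cell A, as did 31 of all 37 members (83.8%). The number of members at an unadjusted p under 0.05 in this fit was 2 without cat 11, 3 without cat 30 and 9 without cat 15. The matching counts over all genes are not given here, so these changes are no result about the members.

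Cell markers were read against age as well. All 4 leukocyte markers had a negative rho, with a median of -0.472, and all 4 endothelial markers a positive one, with a median of 0.433. Of 5 cardiomyocyte markers, 2 had a negative rho, among them MYL2 at -0.767 with an exact permutation p of 0.0214. In the limma fit with flow cell, the unadjusted p was 8.21e-04 for CD163, 0.0361 for PTPRC, 0.0434 for CSF1R and 0.0853 for CD68. It was 0.00403 for VWF, 0.138 for PECAM1, 0.198 for CDH5 and 0.510 for KDR. Of the 2 tested smooth muscle markers, TAGLN had 0.00972 and ACTA2 0.279. Their rho with age had opposite signs, at -0.167 for TAGLN and 0.417 for ACTA2. No gene passed the adjusted threshold there, and the part of these cells in the members' values was not tested.

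IPO4, an importin for histones and ribosomal proteins, had 39.1 and 34.3 in cats 11 and 31, the younger pair on flow cell A, and 21.5 and 16 in cats 23 and 30, the older pair. On flow cell B it went from 23.2 in cat 36, the youngest, through 11.3 in cat 10 to 2.72 in cat 15, which rests on 2 reads. On flow cell C the older cat 37 was at 11.4, above cat 38. Spearman's rho was -0.550 with an exact permutation p of 0.133, and r of log2(value + 1) was -0.503 with an exact permutation p of 0.167. The adjusted p for rho was 0.921. Leaving out the cats farthest from the median age, cats 30 and 36, changed r to -0.661, and leaving out cats 30 and 15 changed it to -0.422. Centred on each flow cell, r was -0.831 with an exact within-flow-cell permutation p of 0.0208. The limma slope with flow cell was -0.116 ± 0.0359 (SE) on the log2 scale per year, with an adjusted p of 0.258.

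Among the 9 cats, NUP50 was lower in the older cats of every flow cell, where flow cell C had only cats 38 and 37. It had 39.9, 36.7, 24.2 and 19.4 in cats 31, 11, 23 and 30 in order of age, then 20.5, 15.8 and 8.17 in cats 36, 10 and 15, and 15.4 and 12.9 in cats 38 and 37. The values of cats 15, 38 and 37 rest on 6, 21 and 9 reads. Spearman's rho over the 9 cats was -0.517 with an exact permutation p of 0.162, and r was -0.481 with an exact permutation p of 0.190. Leaving out cats 30 and 36 gave an r of -0.685, and leaving out cats 30 and 15 gave -0.403. Centred on flow cells, r was -0.959 with an exact permutation p of 0.00347, the smallest that permuting within flow cells allows. The limma slope was -0.0759 ± 0.0271 (SE) per year with an adjusted p of 0.311. NUP50 was singled out here after its values were seen.

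IPO5 had 593 and 637 in the younger cats 31 and 11 and 556 and 417 in the older cats 23 and 30. On flow cell B, cat 36 was at 495, cat 10 at 268 and cat 15 at 332. The values thus did not fall at every step. The rank correlation, rho, was -0.533 with an exact permutation p of 0.148, r was -0.446 with an exact permutation p of 0.225, and centred on flow cells r was -0.716 with an exact permutation p of 0.0417. It was -0.519 when cats 30 and 36 were left out and -0.380 when cats 30 and 15 were. KPNA1, an importin alpha, had a rho of -0.550 with an exact permutation p of 0.133, an r of -0.405 with an exact permutation p of 0.278, and a centred r of -0.579. Its r was -0.411 with cats 30 and 36 left out and -0.694 with cats 30 and 15 left out.

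In the other direction stood NUP214, a cytoplasmic filament nucleoporin, with 23.1 in cat 15 and 19.4 in cat 30, both old, and 9.56 to 17.2 in the other 7 cats. Spearman's rho was 0.567 with an exact permutation p of 0.121 and r was 0.647 with an exact permutation p of 0.0609. With cats 30 and 15 left out r dropped to 0.161, and with cats 30 and 36 left out it was 0.557, so the relation rests on the 2 old cats. Centred on flow cells, r was 0.705 with an exact permutation p of 0.0590. IPO8 and IPO11, 2 further importins, had rho of 0.433 and 0.317 with exact permutation p of 0.250 and 0.410. Their r of 0.546 and 0.502 (exact permutation p of 0.127 and 0.171) became 0.0820 and 0.0317 with cats 30 and 36 left out, and 0.538 and 0.314 with cats 30 and 15 left out. After centring, r was 0.702 and 0.488. All adjusted p for rho of members were at least 0.918 over the genes tested.

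**Figure D5:**
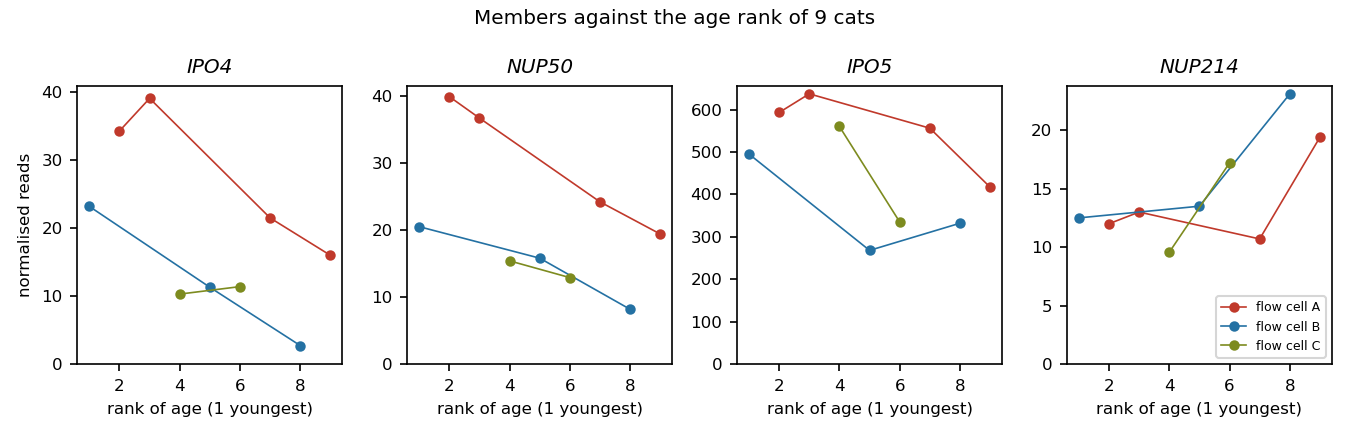
Normalised reads of 4 members against the rank of age of 9 cats, where 1 is the youngest, with lines joining the cats of 1 flow cell. NUP50 falls along each line, and the 2 highest NUP214 points, 23.1 and 19.4, are cats 15 and 30.

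Myocardial fibrosis, measured as a percentage of tissue on histology, was available for 8 listed cats. No gene passed the adjusted threshold, and 247 genes (2.83%) and 2 members (5.41%) had an unadjusted p under 0.05. The rank correlation, rho, was negative for 12 of 37 members (32.4%), against 48.5% of all genes. Pearson's r was negative for 18. Of limma slopes, 18 were negative without flow cell as a covariate and 19 with it. The side on which the members lay was therefore not stable. In the rank correlation, the number of members at an unadjusted p under 0.05 was 0 without cat 30 or cat 35 and 1 without cat 23, 10 or 36. The matching counts over all genes are not given here. All 6 fibroblast markers had a positive rho with fibrosis, with a median of 0.119.

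XPOT, the export receptor of transfer RNA, had 102 and 94.0 in cats 11 and 23 and 49.6 to 65.4 in the other 6. Spearman's rho was 0.762 with an exact permutation p of 0.0368, and r was 0.557 with an exact permutation p of 0.130. Leaving out cats 23 and 15 gave an r of 0.817, and centring 7 cats on their flow cells gave 0.621 with an exact permutation p of 0.264. TNPO2, a transportin that imports RNA-binding proteins, had 5.45 in cat 15, 6.72 in cat 23, 7.35 in cat 38 and 8.90 to 19.4 in the other 5. Its lowest values rest on 4 and 5 reads. The rank correlation, rho, was -0.738 with an exact permutation p of 0.0458 and r was -0.754 with an exact permutation p of 0.0317. Leaving out cats 23 and 15 gave an r of -0.476, and centring on flow cells gave -0.900 with an exact permutation p of 0.0278. The adjusted p for rho was 1 for both.

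NUP155 and XPO5, the exporter of microRNA precursors, followed with rho of 0.619 and 0.571 and exact permutation p of 0.115 and 0.151. Their r was 0.349 and 0.591 (exact permutation p of 0.406 and 0.123), which became -0.249 and 0.807 with cats 23 and 15 left out and 0.239 and 0.651 after centring. XPO7 and KPNA6 had rho of -0.524 and -0.429 with exact permutation p of 0.197 and 0.299. Their r was -0.507 and -0.551 (exact permutation p of 0.201 and 0.162), then -0.458 and -0.323 with those cats left out and -0.553 and -0.848 after centring.

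Transport genes outside the naming rule were read beside the members. Of 28 genes listed, 25 were in the table and 23 were tested. On flow cell A, 16 of 23 had estimates above 0, where 52.4% of all tested genes did, with a median of 0.23. Of the 23, 1 was called, where 5.45% of all genes were. This was CSE1L, which returns importin alpha to the cytoplasm after import. It had 174, 99.4, 87.5 and 116 on flow cell A and 41.7 to 86.0 elsewhere, without overlap, as 1.72% of all genes were above on flow cell A, for a log2 difference of 1 ± 0.26 (SE) and an adjusted p of 0.0372 in limma. PHAX, an adaptor for small nuclear RNA export, was the other at an unadjusted p under 0.05, at 0.82 with an adjusted p of 0.112.

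With age, 17 of these 23 genes had a negative rho, where 51.5% of all tested genes did. Among them were all 6 tested genes of the RAN cycle, a group noticed after its values were seen, with a median rho of -0.492. SEC13 and HIKESHI had an unadjusted p under 0.05 by exact permutation, where 4.76% of all genes did, and none passed the adjusted threshold. HIKESHI, named after its values were seen, carries HSP70 into the nucleus under heat stress. It had 536 and 485 in cats 31 and 11, 491 in cat 36 and 255 and 271 in cats 30 and 23. The 3 youngest cats were the 3 highest. Spearman's rho was -0.917 with an exact permutation p of 0.00131 and an adjusted p of 0.802, and r was -0.854 with an exact permutation p of 0.00504. It was -0.762 and -0.835 when either pair of cats was left out, and -0.884 centred on flow cells with an exact permutation p of 0.0729.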

How the data were processed

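Members, lists and tests were chosen with earlier results of these data known. Per the study's methods, the authors called bases with Guppy, kept reads above a quality score of 7, aligned them to felCat9 using Minimap2 and assigned them to genes with featureCounts, with the use of strand not given in the sources used here. The deposited signal values were gene reads over a size factor of the library: in each library 100% of values were whole multiples of 1 read (tolerance 1e-06), and the reads were recovered from them. Genes with 10 reads in 3 of 10 listed libraries were tested. limma with an intensity trend on log2(value + 1), with 3 flow cell means, gave the differences between flow cells on that scale, which understates changes of low genes. Spearman's rho of values with age (9 cats) or myocardial fibrosis (8 cats), taken by cat number from the study's cohort description, was tested by two-sided exact permutation. Adjusted p are Benjamini-Hochberg values over 8715 genes, and each family was run on all of them. Pearson's r used log2(value + 1). The 2 cats farthest from the median trait were left out together, in both ways where tied.

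With 1 library per cat, p-values measure the spread between cats and counting error together. Counting error is the Poisson error of the recovered reads. The limit for 0 reads covers counting error only. Genes named were the member with the most reads in each role, the 3 with the smallest p in each direction for each trait, the 3 with the largest and smallest spread, and called members or pathway genes. Alternatives were edgeR's quasi-likelihood test and DESeq2 on recovered reads, TMM scaling, no scaling, pseudocounts of 0.5 and 2, other filters, flow cell as a covariate, total fibrosis, the 2 unlisted libraries entered or left out, and each library left out. Thinning, and leaving out or adding cats in the fit with the covariate, were added after seeing the data. Scripts were tested on simulated data. Overlaps between genes were read from the positions in the RefSeq table of assembly F.catus_Fca126_mat1.0, another build than felCat9. Gene lengths and sequences were not used here. Tools were R 4.3.3, limma 3.58.1, edgeR 4.0.16, DESeq2 1.42.0, Python 3.11.15 with matplotlib 3.10.9, scipy 1.17.1, pandas 2.3.3 and numpy 2.4.6.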

Additional observations from a re-analysis of the deposited data

Results flagged for a closer look

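Within the 4 libraries of a flow cell, a value was singled out when its gap to the nearest other, relative to the group's range, exceeded Dixon's critical value. Chance does this in about 1 group in 20, and 4 values stood out in the 90 groups looked at, so their number is no more than chance would give. KPNA2 in cat 22 was at 36.5 normalised reads, against 9.98 to 12.9 in the other libraries of flow cell C. KPNA4 in cat 29 was at 153, against 301 to 316 on that flow cell. NUP155 in cat 31 was at 46.3, against 26.1 to 28.5 on flow cell A. The members' share of all reads in cat 38 was 0.163%, against 0.127% to 0.132% on flow cell C. The causes were not tested.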

How the results depend on the processing

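No member was called between flow cells B and C, with age or with fibrosis under any alternative run. Between flow cell A and the others, edgeR called 1 member and DESeq2 3, and with 1 library left out the number ranged from 0 to 1. The member was KPNA2 without cat 23, 10 or 22, NUP54 without cat 30 and XPO6 without cat 38. XPO6 passed the filter on reads only through flow cell A. Genes called numbered 824 with DESeq2, 102 without scaling and 262 without the 2 unlisted libraries, and 47 to 530 with 1 library left out. Without scaling by size factors the median of all genes shifted to 0.41 and that of members to 0.76, and 94.1% of calls were higher on flow cell A against 33.7% with scaling. Between 27 and 34 members had a higher estimate on flow cell A under every alternative. For age, 35 members had a negative rho without scaling, and 22 to 28 with 1 cat left out. For fibrosis, 12 negative coefficients became 29 without scaling. They became 18 with Pearson's r, with total fibrosis or with a limma slope. They became 19 with the unlisted libraries entered or with flow cell as a covariate, and 24 with both. With 1 cat left out they were 9 to 18 in the rank correlation and 14 to 23 in the fit with flow cell. Small estimates changed sign. On flow cell A, NUP62 was at 0.19 without scaling, 0.01 thinned and from -0.34 to 0.02 with 1 library left out. NUP85 was at -0.22 without the unlisted libraries and from -0.07 to 0.74 with 1 left out. XPO7 was at 0.00 with TMM, 0.35 without scaling and from -0.15 to 0.09 with 1 left out. Without scaling, rho with age was -0.0418 for NUP214 and -0.0753 for IPO11, and rho with fibrosis was -0.0714 for XPOT and -0.0120 for NUP155. The causes were not tested. No paired analysis was possible because no flow cells share cat numbers. Members with few reads carry counting errors above 30%, which limits NUP188, NUP58, NUP160, NUP62 and TNPO2.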
